A study of Mus musculus with 4 samples.

Results

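The IL-12 family subunits and receptors are described here in mouse dendritic cells (DC), which take up antigen and present it to T cells and were grown here from bone marrow. The family was taken as 8 genes, of which 5 encode cytokine subunits (Il12a, Il12b, Il23a, Il27 and Ebi3) and 3 encode receptor chains (Il12rb1, Il12rb2 and Il27ra). Within this family, probe sets were chosen by annotation alone, as those with 1 of these genes as their only symbol. This gave 8 probe sets of 22626 tested, for 7 of the 8 genes: Il12b had a pair of probe sets and each other measured gene had 1. Il27 was not measured here, and no probe set was added through an older gene name.

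RNA was hybridised to 4 Affymetrix mouse arrays. Of these, 2 arrays held immature DC and 2 held DC after modulation by NKT cells (natural killer T cells), which recognise lipids on CD1d molecules. All 4 samples carry the labels C57BL/6 strain and bone marrow dendritic cells, and, per the design text, CD11c cells were the source of the RNA; Itgax encodes this integrin. That text also names triplicates, another labelling kit than the sample labels and an array type with more probe sets, so it may not match these arrays in every point. The ratio of cells, the lipid or other agent, the duration of the modulation, and the age and number of mice are not known from the labels. Nothing says that the arrays came from separate cultures, so the spread behind each p-value may be technical only.

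Each cytokine of the family is a heterodimer. IL-12 pairs the p35 subunit (Il12a) with the p40 subunit (Il12b), IL-23 pairs p19 (Il23a) with the same p40, IL-27 pairs p28 (Il27) with EBI3, and IL-35 pairs p35 with EBI3. Activated DC and macrophages are the classical source of IL-12, IL-23 and IL-27, whereas the receptors are best known on T and NK cells, where IL-12 drives interferon gamma production and IL-23 sustains cells that make IL-17.

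Upstream sequences are shown first for the 3 members whose window held a match. Of these, Il12b and Ebi3 rose, and Il12rb2 did not pass the test. Il12a, whose windows held no match, rose as well, and whether matches go with changes was not tested. RefSeq windows of the GRCm38.p6 build matched 4 of the 8 member genes (Il12a, Il12b, Ebi3 and Il12rb2), with 5 start sites. The 250 bases before each start were searched on both strands for 5 motifs, in which N is any base. For NF-kB these were a core (GGGNNTTCC) and a fixed NF-kB site without free positions (GGGAATTTT). The others were an interferon response core (GAAANNGAA), a STAT palindrome (TTCNNNGAA) and an AP-1 site (TGANTCA). NF-kB and interferon regulatory factors are known regulators of IL-12 family genes. The letters of the motifs were chosen after the sequences had been seen. Matches are in capitals, 5′ to 3′ on the gene's strand:
Il12b, chr11:44399813-44400062, + strand: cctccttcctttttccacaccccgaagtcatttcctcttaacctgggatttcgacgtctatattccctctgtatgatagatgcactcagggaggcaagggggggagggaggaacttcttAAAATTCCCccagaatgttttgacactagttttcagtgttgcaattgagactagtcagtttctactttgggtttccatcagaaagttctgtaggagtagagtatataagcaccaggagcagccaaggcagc
Ebi3, chr17:55952373-55952622, + strand: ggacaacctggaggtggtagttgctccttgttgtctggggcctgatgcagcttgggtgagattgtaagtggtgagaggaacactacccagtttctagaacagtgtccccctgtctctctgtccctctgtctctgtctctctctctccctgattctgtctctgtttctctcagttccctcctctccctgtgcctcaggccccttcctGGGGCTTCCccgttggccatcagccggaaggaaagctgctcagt
Il12rb2, chr6:67376189-67376438, - strand: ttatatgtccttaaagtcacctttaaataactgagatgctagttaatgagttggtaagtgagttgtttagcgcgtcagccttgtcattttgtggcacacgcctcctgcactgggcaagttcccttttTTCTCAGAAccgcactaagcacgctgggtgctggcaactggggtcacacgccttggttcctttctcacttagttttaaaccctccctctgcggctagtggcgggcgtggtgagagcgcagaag

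The Il12b window held the fixed NF-kB site on the opposite strand, from -131 to -123 relative to the start. Of 32851 promoter windows, 0.265% held that motif in the same 250 bases. As the letters were chosen after the sequences had been seen, this share and those below do not measure how unusual a match is. The capitals of Ebi3 are a match of the NF-kB core from -44 to -36, and 4.98% of all windows held this core. Il12rb2 held a STAT palindrome from -123 to -115, a motif found in 7.02% of windows. The interferon response core and the AP-1 site, present in 7.13% and 6.75% of all windows, were not matched in the 5 member windows, and neither window of Il12a held a match of any motif. A match is a description of letters and not of binding.

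Members of the family rose in the NKT-modulated samples. Of the 8 probe sets, 7 were higher and 0 lower at an adjusted p under 0.05, against 5.36% higher and 5.70% lower among all 22626 probe sets. The family was chosen with earlier results of these data known, so this excess is not independent of that choice. The exception was Il12rb2; at an unadjusted p under 0.05, 8 were higher and 0 lower by limma. Without NKT-modulated replicate 1, 4 were higher, and at the adjusted p of 0.001 named in the design text 1 was. The median change of the 8 probe sets was 1.99 on the log2 scale, and that of all probe sets -0.03. All values are changes of log2(signal + 16) after quantile normalization, with the SE of the limma fit and Benjamini-Hochberg adjustment over all probe sets, and n = 2 arrays per group throughout. The deposited signals did not overlap between groups for 8 of 8 member probe sets, as for 53.5% of all probe sets.

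**Figure D1:**
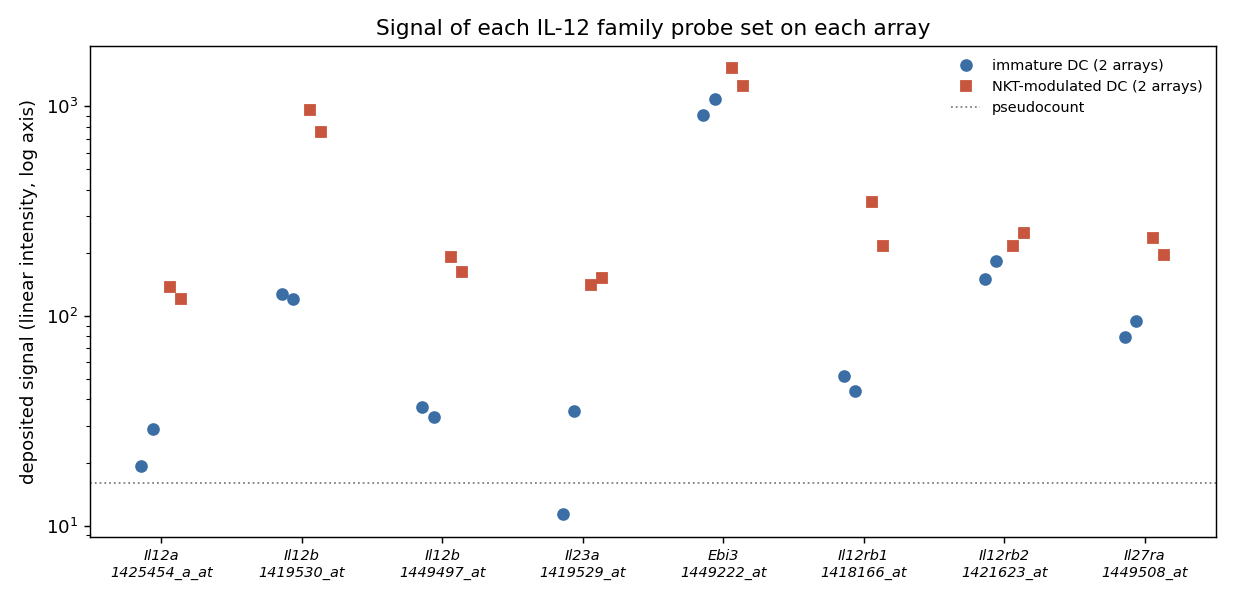
Deposited signal of the 8 IL-12 family probe sets on each array (linear intensity on a log axis); circles are the 2 immature DC arrays, squares the 2 NKT-modulated DC arrays, and the dotted line is the pseudocount of 16. Squares lie above circles for each probe set, with the narrowest gaps for Ebi3 and Il12rb2; heights of different probe sets are not comparable.

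Il12b encodes p40, the chain shared by IL-12 and IL-23. Its brighter probe set, 1419530_at, had the largest change of the 8, although with a pseudocount of 1 Il23a was level with it (2.93 against 2.92). This probe set had signals of 127.6 and 120.5 on the immature arrays and 962.5 and 753.7 on the NKT-modulated arrays. The groups were well apart, and the lower of the NKT-modulated signals exceeded both immature signals several times over. The rise was 2.78 ± 0.16 (95% interval 2.38 to 3.17, adjusted p = 4.27e-04, limma), which ranked 116 among the rises of all probe sets. The other probe set, 1449497_at, had signals of 36.6 and 32.8 against 191.5 and 162.1, and its rise was 2.04 ± 0.23 (adjusted p = 0.00390, limma). Both probe sets rose, with linear ratios of mean signals of 6.92 and 5.09. Their 95% intervals overlapped (2.38 to 3.17 and 1.48 to 2.61), and whether the rises differed in size was not tested.

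Il12a, which encodes p35, the subunit whose supply limits IL-12 secretion in many cells, was dim before modulation. Signals were 19.2 and 28.8 on the immature arrays, close to the first quartile of all probe sets (26.9 to 29.8 over the 4 arrays), and 137.1 and 120.1 on the NKT-modulated arrays. The NKT-modulated arrays lay close to each other and clear of the immature ones. Il12a rose by 1.95 ± 0.27 (95% interval 1.29 to 2.60, adjusted p = 0.00764, limma). As immature signals were near the pseudocount, the size depended on it: the change was 2.50 with a pseudocount of 1 and 1.19 with 64.

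Il23a, which encodes p19, the chain specific to IL-23, was also near the dim end in immature DC and varied there. Its signals were 11.3 and 35.2 on the immature arrays and 140.8 and 151.9 on the NKT-modulated arrays. The immature arrays differed from each other by more than for any other member on the normalized log2 scale (SD 0.67), but neither reached the NKT-modulated level. Il23a rose by 2.22 ± 0.37 (95% interval 1.33 to 3.11, adjusted p = 0.0147, limma). The call ended without NKT-modulated replicate 1 (adjusted p = 0.0632), without NKT-modulated replicate 2 (adjusted p = 0.0688) and without the intensity trend (adjusted p = 0.0522); with pseudocounts of 1 and 64 the change was 2.93 and 1.36.

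Ebi3, the soluble receptor-like chain of IL-27 and IL-35, was bright in both groups and changed least among the subunits. Its signals were 908.4 and 1083 on the immature arrays and 1518 and 1254 on the NKT-modulated arrays, all above the array medians (129.0 to 158.1). Both NKT-modulated arrays were higher, by a narrow margin over immature replicate 2. Ebi3 rose by 0.59 ± 0.11 (95% interval 0.32 to 0.86, adjusted p = 0.0240, limma). The interval ended below the lower bounds of Il12a, Il23a and Il12b. The call ended without immature replicate 1 (adjusted p = 0.0938), immature replicate 2 (adjusted p = 0.0656) or NKT-modulated replicate 1 (adjusted p = 0.130), without normalization (adjusted p = 0.0983) and without the intensity trend (adjusted p = 0.116).

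**Figure D2:**
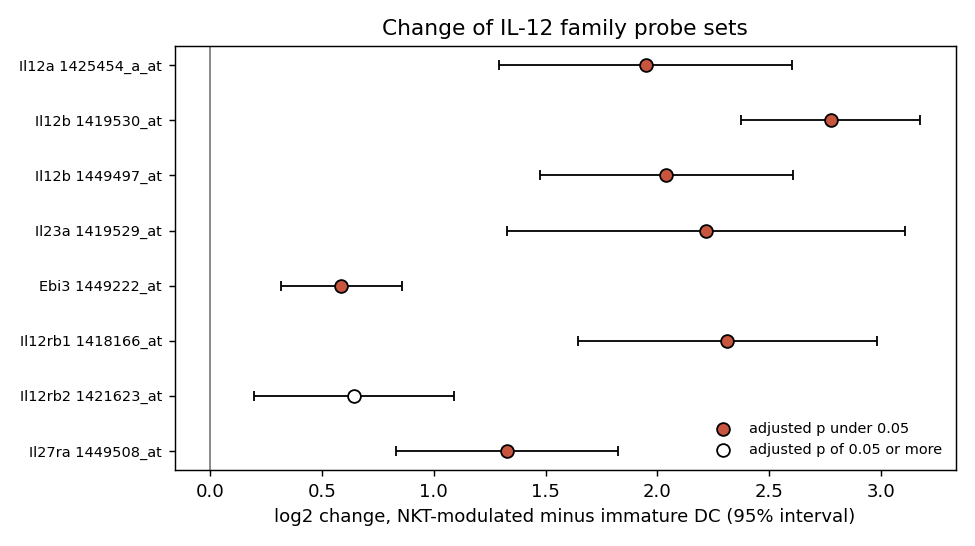
Log2 change of each IL-12 family probe set, NKT-modulated minus immature DC, from the limma fit on 2 arrays per group; bars are 95% intervals, filled points passed an adjusted p of 0.05, and the open point, Il12rb2, did not. Ebi3 and Il12rb2 lie near 0.6, and the other 6 probe sets between 1.33 and 2.78.

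Among the receptor genes, Il12rb1 rose most. It encodes the beta 1 chain shared by the receptors of IL-12 and IL-23. Its signals were 51.6 and 43.8 on the immature arrays and 349.9 and 214.7 on the NKT-modulated arrays. The NKT-modulated arrays differed from each other (SD 0.44 on the normalized log2 scale), and both lay above the immature ones. Il12rb1 rose by 2.31 ± 0.27 (95% interval 1.65 to 2.98, adjusted p = 0.00452, limma).

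Il27ra, the ligand-specific chain of the IL-27 receptor, had signals of 79.4 and 94.8 on the immature arrays and 236.5 and 195.8 on the NKT-modulated arrays. The groups were clearly separated. Il27ra rose by 1.33 ± 0.20 (95% interval 0.83 to 1.82, adjusted p = 0.0115, limma). Its call ended without immature replicate 1 (adjusted p = 0.0641) and without NKT-modulated replicate 1 (adjusted p = 0.0738).

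Il12rb2, the signalling chain of the IL-12 receptor, through which STAT4 is activated, did not pass the test. Signals were 150.4 and 183.9 on the immature arrays and 215.8 and 248.1 on the NKT-modulated arrays. The NKT-modulated arrays were the higher ones, with a gap between the groups similar to the gaps within them. The change was 0.64 ± 0.18 (95% interval 0.20 to 1.09, adjusted p = 0.0829, limma). With dim probe sets left out, so that 12811 were tested, the same change of 0.64 had adjusted p = 0.0285.

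T lineage transcripts were in part higher on the NKT-modulated arrays, on which subunit and receptor genes rose as well. Of 20 T and NKT cell markers, 18 were measured, and 10 of them were higher and 0 lower, where 5.99% of all 12393 genes were higher and 6.88% lower. Each marker was taken by its brightest probe set, by which the other measured markers did not pass. Of these, Zap70 and Zbtb16 had 2 probe sets each, of which the dimmer was called higher. The summed signal of the 18 markers was 1446 and 1522 on the immature arrays and 8321 and 6503 on the NKT-modulated arrays. None of the 18 markers was listed at 0 on all arrays, but Cd3d, a chain of the CD3 complex, was at 5.38 and 5.58 on the immature arrays and at 304.0 and 205.4 on the NKT-modulated arrays. The part of such transcripts in the changes of the receptor chains, or of any other member, was not tested. In bulk RNA, more cells of a type and more RNA per cell cannot be told apart, nor can fewer cells and less RNA.

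Defining DC transcripts were present in both groups. Of 10 DC markers, 1 was higher (Cd86, a costimulatory ligand) and 0 lower, and their summed signal was 72182 and 66888 on the immature arrays and 83525 and 75414 on the NKT-modulated arrays. Itgax had signals of 5442 and 5537 against 5253 and 4643, a change of -0.19 ± 0.08 (adjusted p = 0.204, limma). For markers of other cells, 2 of 7 NK cell markers were higher and 1 lower, and 1 of 7 B cell markers higher and 1 lower. Of neutrophil markers 2 of 7 were higher and 0 lower, and of macrophage and monocyte markers 1 of 6 higher and 1 lower. Of mast cell and basophil markers 1 of 7 was higher and 0 lower, and of plasmacytoid DC markers 2 of 5 higher and 0 lower. Over all 12393 genes, 5.99% were higher and 6.88% lower, so such small counts describe single genes and not cell types. These counts use the brightest probe set of each gene. By other probe sets, Fscn1 of the DC list was higher in 1 of 4, and Csf1r of the macrophage list was lower in 1 of 3.

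Partners of the same heterodimer were then compared within each array, as the difference between their normalized log2 values. Levels of different probe sets cannot be compared, so a single difference has no meaning of its own, but its change between groups shows whether partners changed unequally. With 2 arrays against 2, an exact two-sided permutation test cannot give a p below 0.333, so none of these comparisons could pass a threshold of 0.05. IL-27 and the receptors of IL-23 and IL-27 were not compared in this way.

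For IL-12, the difference of Il12b minus Il12a was 2.02 and 1.48 on the immature arrays and 2.68 and 2.48 on the NKT-modulated arrays. The groups did not overlap, and the difference grew by 0.83 ± 0.29 (SE from the arrays, exact permutation p = 0.333); it was 0.43 with a pseudocount of 1 and 1.21 with 64. With the other Il12b probe set it grew by 0.09 ± 0.23 (exact permutation p = 1.00), a comparison added after the data were seen. Whether p40 transcripts rose more than p35 transcripts thus depended on the Il12b probe set, and by how much also on the pseudocount. The cause was not tested.

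For IL-23, the difference of Il12b minus Il23a was 2.39 and 1.30 on the immature arrays and 2.64 and 2.16 on the NKT-modulated arrays. The groups overlapped, with a change of 0.56 ± 0.60 (exact permutation p = 0.667) that turned to -0.18 with the other Il12b probe set and to -0.0063 with a pseudocount of 1; it was 0.06 without immature replicate 2, 1.13 without immature replicate 1 and 0.28 without NKT-modulated replicate 1. The change was smaller than the spread of the arrays.

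For IL-35, the difference of Ebi3 minus Il12a was 4.76 and 4.44 on the immature arrays and 3.29 and 3.18 on the NKT-modulated arrays. The change was -1.36 ± 0.17 (exact permutation p = 0.333), with no overlap, the larger change being that of Il12a; it was -1.90 with a pseudocount of 1 and -0.63 with 64. For the IL-12 receptor, the difference of Il12rb2 minus Il12rb1 was 1.28 and 1.57 on the immature arrays and -0.67 and 0.19 on the NKT-modulated arrays. It changed by -1.67 ± 0.46 (exact permutation p = 0.333), again with no overlap, so that Il12rb1 was the chain with the larger change.

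**Figure D3:**
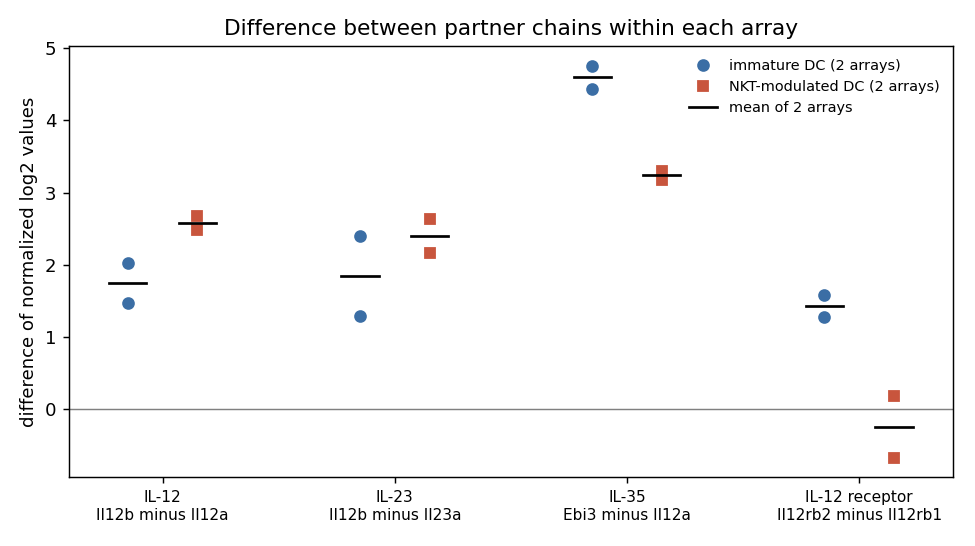
Difference of normalized log2 values between partner chains within each array, for IL-12, IL-23, IL-35 and the IL-12 receptor; circles are the 2 immature DC arrays, squares the 2 NKT-modulated DC arrays and bars their means. The IL-35 and IL-12 receptor differences were lower on both NKT-modulated arrays, the IL-12 difference was higher on both, and the IL-23 values overlap.

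Around the members, lists of related genes were counted, each gene by its brightest probe set. Of 69 listed genes that were not members, 60 were measured; 26 were higher and 7 lower. Without any 1 of the 4 arrays, 22 to 25 were higher and 2 or 3 lower. Over all 12393 genes the shares were 5.99% and 6.88%, and the median change was -0.04. The lists, too, were chosen with earlier results of these data known, so their counts are not independent of that choice. Lists with a count of 0 lower held 0 lower genes at an unadjusted p under 0.05 by limma too, except that of DC markers, with 1.

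Of 4 measured receptor partners and structural relatives, 1 was higher and 0 lower (median 0.26). Il6, a cytokine related to the p35 and p28 subunits, rose from signals of 148.4 and 202.8 to 5051 and 3915, by 4.65 ± 0.14 (adjusted p = 4.51e-05, limma). Il6st, which encodes gp130, the shared signalling chain of the IL-27 receptor, had a change of 0.32 ± 0.09 (adjusted p = 0.0682, limma) from signals of 1103 and 1216 to 1360 and 1334. Il6ra, the IL-6 receptor alpha chain, and Clcf1, a cytokine of the IL-6 family, had changes of 0.20 ± 0.18 and -0.03 ± 0.24. Il23r, the specific chain of the IL-23 receptor, was not analysed here.

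Of 5 measured kinase and STAT genes that act below these receptors, 2 were higher and 0 lower (median 0.44). Stat3, the main STAT factor of IL-23 signalling, rose by 1.01 ± 0.10 (adjusted p = 0.00271, limma), from signals of 1227 and 1621 to 2738 and 2693. Of its 3 probe sets, 2 were called higher. Jak2, a kinase that binds Il12rb2, rose by 0.44 ± 0.07 (adjusted p = 0.0161, limma), but this call ended under 5 of 11 alternatives, with adjusted p up to 0.140. Stat4, the STAT factor of IL-12, had signals of 514.0 and 684.2 against 907.9 and 679.3, which overlap, and a change of 0.57 ± 0.16 (adjusted p = 0.0795, limma). Tyk2, the kinase that binds Il12rb1, and Jak1, which binds gp130, had changes of -0.11 ± 0.10 and 0.03 ± 0.08.

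Among receptors and adaptors through which DC are induced to make IL-12 family cytokines, 9 of 10 were measured, 1 was higher and 3 were lower (median -0.39). Cd40, the receptor of CD40 ligand, rose from signals of 947.3 and 1091 to 7419 and 6258, by 2.76 ± 0.09 (adjusted p = 4.94e-05, limma). Tlr4, the receptor of lipopolysaccharide, and Tlr3, a receptor of double-stranded RNA, were lower, with changes of -0.44 ± 0.10 and -0.79 ± 0.19 (adjusted p = 0.0471 and 0.0474, limma). Both of these calls ended under 8 of 11 alternatives, with adjusted p up to 0.213 and 0.228.

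Of 12 transcription factors listed for IL-12 family promoters or for DC, 11 were measured, 6 were higher and 1 was lower (median 0.46). Irf1, an interferon-induced factor of the Il12a promoter, rose by 2.72 ± 0.10 (adjusted p = 9.17e-05, limma), from signals of 1088 and 1035 to 6973 and 6777. The rise of Batf3, which acts in conventional DC, was 1.74 ± 0.09 (adjusted p = 2.71e-04, limma). Ets2 fell by 0.48 ± 0.11 (adjusted p = 0.0448, limma), a call that ended under 8 of 11 alternatives.

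Inhibitors of IL-12 family production were all measured, and 6 of 12 were higher and 1 lower (median 0.83). Socs3, an inhibitor of cytokine receptor signalling, rose by 1.86 ± 0.08 (adjusted p = 1.20e-04, limma), and Atf3, a repressor of inflammatory genes, by 2.00 ± 0.14 (adjusted p = 7.23e-04, limma). Bcl6, a transcriptional repressor, fell by 1.28 ± 0.11 (adjusted p = 0.00132, limma). Of its 2 probe sets, only this 1 was called lower.

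Genes downstream of the cytokines were counted last. Of 10 type 1 response genes below IL-12, 9 were measured, 3 were higher and 1 was lower (median 0.71). Ifng and Gzmb, products of activated T and NK cells, rose by 7.0 ± 0.25 and 5.97 ± 0.30 (adjusted p = 7.37e-05 and 2.07e-04, limma). Il18r1, a chain of the IL-18 receptor, fell by 1.81 ± 0.24 (adjusted p = 0.00636, limma), a call that ended without immature replicate 1 (adjusted p = 0.0528). Tbx21, the factor T-bet, was the other gene of this list that rose, by 3.90 ± 0.27 (adjusted p = 7.68e-04, limma). By their brightest probe sets 5 genes did not pass, among them Fasl, of whose 2 probe sets the dimmer was called higher.

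Of 9 type 17 response genes below IL-23, 6 were measured, 4 were higher and 1 was lower (median 1.56). Csf2, the gene of GM-CSF, and Il17a rose by 8.12 ± 0.14 and 6.54 ± 0.20 (adjusted p = 8.26e-06 and 4.42e-05, limma). Ccr6, a chemokine receptor, fell by 1.12 ± 0.19 (adjusted p = 0.0174, limma), a call that ended under 5 of 11 alternatives. Of 8 genes downstream of IL-27, all were measured, 6 were higher and 0 lower (median 1.81); after Socs3 the smallest p was that of Prdm1, the factor Blimp-1, which rose by 2.43 ± 0.12 (adjusted p = 2.02e-04, limma). Socs3 and Tbx21, among others, stood in the IL-27 list and in a list above, and were counted in both. The lists of downstream genes hold T cell products, and the T and NKT cell markers that moved with them are given above. The part of T and NKT cell transcripts in these changes was not tested.

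**Figure D4:**
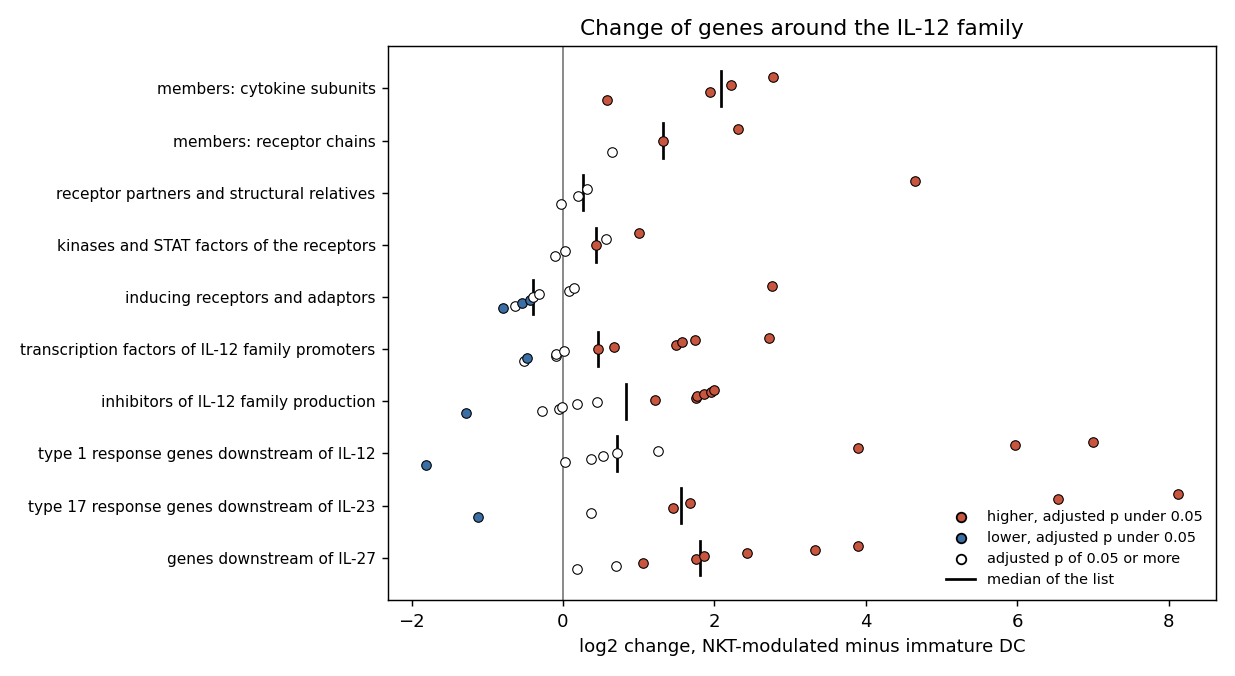
Log2 change, NKT-modulated minus immature DC, of the measured IL-12 family genes and of the genes in each related list; each point is a gene by its brightest probe set, red and blue points passed an adjusted p of 0.05, open points did not, and bars are list medians. Genes downstream of the cytokines span the widest range, from -1.81 to 8.12.

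Genes with the pattern most like that of each called member were found by Euclidean distance between their 4 normalized log2 values, each centred on its own mean. Only 4 arrays enter, and genes with changes of like size lie close whatever their level. Nearest to Il12b were Igtp, an interferon-inducible GTPase, at a distance of 0.13, and Cd40 at 0.17. Nearest to Il12a were Vegfc, a vascular growth factor, at 0.16 and Gpr84, a receptor of medium-chain fatty acids, at 0.17. Il23a had no neighbour as close, with Gem at 0.28 and Akr1c18 at 0.32.

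For the receptor chains, the gene nearest to Il12rb1 was Bcl11b, a factor of T cell development and a member of the T cell marker list, at 0.21. Its signals were 8.32 and 3.75 on the immature arrays and 104.6 and 54.8 on the NKT-modulated arrays. Dusp2, a MAP kinase phosphatase, followed at the same rounded distance of 0.21. Nearest to Il27ra were Nr1d1 at 0.08 and Yes1 at 0.09. Nearest to Ebi3 were Pdyn at 0.03 and Prss58 at 0.05, which themselves did not pass the test (adjusted p = 0.138 and 0.213, limma); their signals reached at most 15.2 and 40.0.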

How the data were processed

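Array signals were measured in 2 immature and 2 NKT-modulated DC samples. The deposited values are linear intensities, 1 per probe set and array; the authors analysed the images with GCOS, per the submitters' processing notes, whose version, summary algorithm and scaling are unknown here. The number of arrays limits the precision.

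Of 22690 rows, 64 control probe sets were left out. Signals were turned into log2(signal + 16), which understates changes of dim genes, quantile normalized, since array quartiles differed by 0.27, and compared with limma 3.58.1 in R 4.3.3 (intensity trend, two-sided), called at an adjusted p of 0.05. The limma fit was tested on simulated log2 values, which did not cover the pseudocount or the normalization. Names came from the platform's annotation (20380 probe sets with 1 symbol, 691 with several, 1555 unnamed here), updated by gene ID through RefSeq GRCm38.p6.

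Named genes were all members, all measured receptor partners, kinases and STAT factors, up to 2 called genes of smallest p per direction from other lists, and the 2 nearest genes of each called member; Tbx21, Cd3d, Itgax and Cd86 fall outside this rule. Members and lists were chosen with earlier results of these data known. Alternatives were other pseudocounts, scaling, a dim filter, no trend, a threshold of 0.001 and leaving out each array.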

Additional observations from a re-analysis of the deposited data

How the results depend on the processing

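No paired analysis was possible because the labels give no replicate numbers that the groups share. The adjusted p of 0.001 named in the design text left 1 member higher (Il12b), 14 related genes higher and 0 lower, and 197 probe sets higher and 36 lower in all. Leaving out 1 array (the lone array of a group is then assumed to vary like the others) gave 4 to 6 member probe sets higher, 4 of them without NKT-modulated replicate 1, 2 to 3 related genes lower, and 624 to 822 probe sets higher and 446 to 625 lower. Without the intensity trend 625 probe sets were higher and 420 lower, and 2 related genes were lower; with a pseudocount of 64 and after cyclic loess 3 related genes were lower. Of all calls 48.5% were higher, against 36.6% without normalization and 56.2% after cyclic loess. No member probe set was lower under any of the 11 alternatives by limma, and none changed sign.

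Partner differences moved with the pseudocount. With 1 and 64 the change was 0.43 and 1.21 for IL-12 and -1.90 and -0.63 for IL-35; it was -0.0063 and 1.05 for IL-23, and -1.18 for the IL-12 receptor with 64. With the other Il12b probe set it was 0.093 for IL-12 and -0.18 for IL-23. Leaving out 1 array gave 0.60 to 1.12 for IL-12 and 0.06 to 1.13 for IL-23. Genes that did not pass changed sign: Il6ra to -0.012 and Jak1 to -0.041 without normalization and Clcf1 to 0.0037 after cyclic loess. Leaving out 1 array gave -6.67e-06 to 0.063 for Jak1 and -0.29 to 0.23 for Clcf1. The causes were not tested. No detection calls were used, so dim signals of Il12a and Il23a in immature DC are not shown to lie above background.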
